A study of Mus musculus with 36 samples.

Results

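The subject here is the liver of young adult mice: RNA of 5-month-old Myc heterozygous (Myc+/-) males against RNA of wild type males of the same age. The 6 arrays titled as liver at 5 months were taken, of 36 arrays in the series, and all 21789 probe sets with 1 gene symbol were described. Of these, 13073 probe sets for 11923 genes passed a filter on low signal and were tested. All mice were C57Bl/6 males. The Myc+/- mice carried 1 inactivated copy of Myc and the wild type mice carried 2 intact copies, and no other allele or treatment was named. Equal amounts of RNA from 6 wild type mice were combined into 1 pool and from 5 Myc+/- mice into another, and each pool was hybridised 3 times, to Affymetrix Mouse Gene 1.0 ST arrays. Liver at 24 months (5 wild type and 8 Myc+/- mice) and muscle and adipose tissue at 5 months, from the same animals as the 5-month livers, were used only to show where the young liver differed.

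Myc is a transcription factor that binds DNA with its partner Max. It is known for driving ribosome production, nucleotide synthesis and cell growth. In adult liver it is kept low and is induced when hepatocytes re-enter the cell cycle, and the liver is also the main source of the plasma proteins of the acute phase response, which is set off by cytokines such as interleukin 6. The comparison asks which liver transcripts differed early in life between mice with a full and a reduced dose of Myc, in a series whose title links lowered Myc to a longer healthspan.

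With 1 pool a genotype, no value below tests the genotype. The tests ask whether 2 RNA mixtures differed by more than the spread between arrays, and the spread between mice is not measured. A pool mean can be set by 1 mouse as well as by all. In a bulk tissue, fewer cells of a type and less RNA per cell cannot be told apart. Values are log2 RMA expression values, so a difference of 1 is 2-fold, and ± after a level is the SD of 3 arrays and after a difference the SE from array-to-array error.

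On 2 of the 6 arrays the values stood apart from the rest. Median array SD per probe set was 0.078 in the wild type pool and 0.083 in the Myc+/- pool. The Myc+/- replicate 1 array read low for very bright probe sets: its highest value was 14.46, against 15.28 to 15.32 on the other 5 arrays. In the brightest of 10 equal groups of genes, the medians were 11.90, 11.87 and 11.90 on the wild type arrays and 11.79, 11.94 and 11.94 on the Myc+/- arrays. The median difference of that group was -0.031 with all arrays and 0.037 without Myc+/- replicate 1. Wild type replicate 2 had the highest array median (7.027, against 6.946 to 6.985) and the lowest correlations, across probe sets, with its own pool (0.9942) and with the other pool (0.9897). In the sixth of the 10 groups its median was 8.808, against 8.87 to 8.924 on the other 5 arrays. Of the calls given below, 10 were lost without it, those of Aqp8, Cyp2b10, Cyp2b9, Cyp2c55, Cyp3a44, Gpat3, Mmd2, Olig1, Pdk4 and Rdh16. Gene groups made of abundant liver transcripts are given with and without Myc+/- replicate 1. The tissue label held: albumin (Alb) read between 13.74 and 14.82 on all 6 arrays, and all 13 measured hepatocyte markers were tested. These markers read lower in the Myc+/- pool for 13 of 13, with a median of -0.15, but without Myc+/- replicate 1 the median was 0.018 and 8 of 13 were higher.

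A gene was called when limma's adjusted p was under 0.05 and the difference at least 1.5-fold. By this rule 46 genes (0.386% of those tested) read higher in the Myc+/- pool and 11 (0.0923%) read lower, each gene by its brightest probe set. Counted by probe set the numbers were 49 and 11, for 59 symbols. With no minimum fold, 335 genes (2.81%) were higher beyond array error and 195 (1.64%) lower. The median difference over all tested genes was 0.012, and the middle 95% lay between -0.26 and 0.29. Few genes were 2-fold apart: 12 were higher and 3 lower. The threshold fell within a run of similar genes, since 28 genes past array error differed by 1.4-fold to 1.5-fold and 14 by 1.5-fold to 1.6-fold. On 59 of the 60 called probe sets the 3 arrays of one pool did not overlap those of the other, which over all tested genes held for 13.3% on the higher side and 9.38% on the lower. The exception was Cyp3a44, whose lowest Myc+/- array (8.72) lay below the highest wild type array (8.83).

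**Figure D1:**
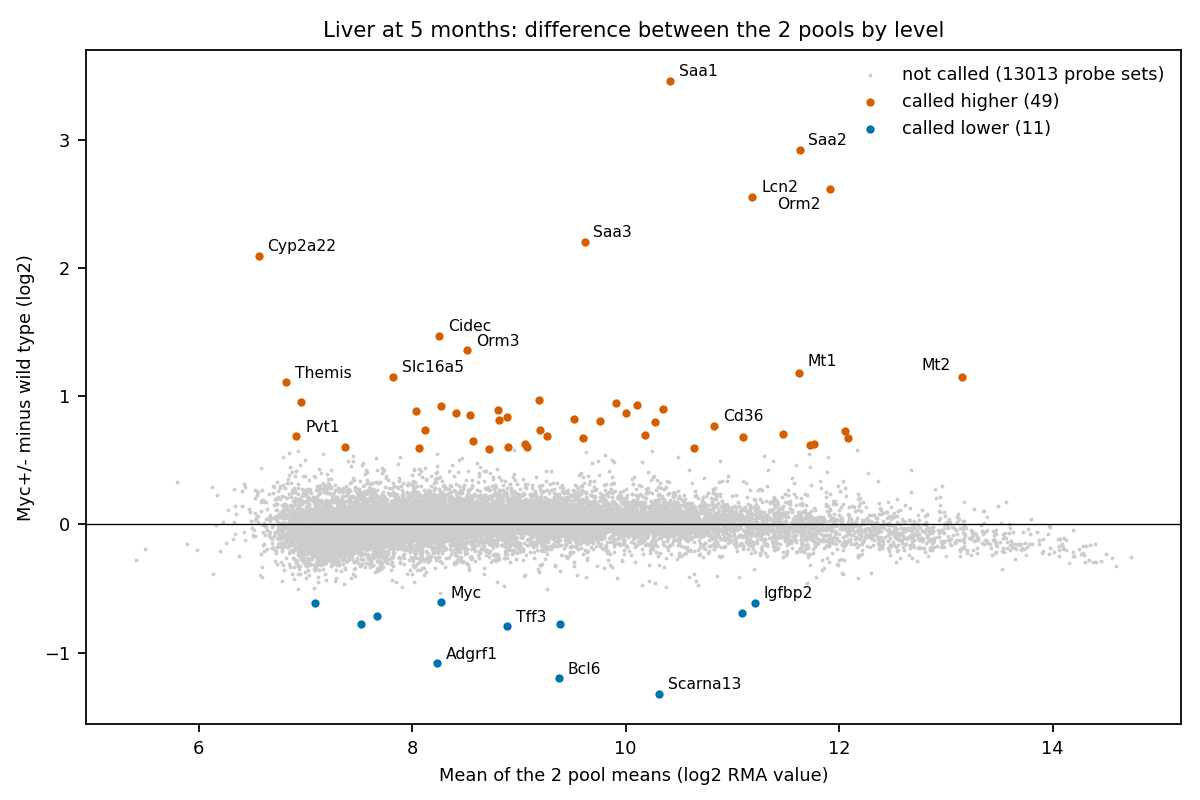
Difference between the Myc+/- and the wild type pool (log2, vertical axis) against the mean of both pool means (log2 RMA value, horizontal axis) for the 13073 tested probe sets, with the 49 called higher in orange and the 11 called lower in blue. Most probe sets lie within 0.3 of 0, and Saa1 (3.46), Saa2, Orm2, Lcn2 and Saa3 stand above the rest.

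Myc itself read 8.61, 8.43 and 8.68 on the wild type arrays and 8.03, 8.07 and 7.81 on the Myc+/- arrays. The 2 pools did not overlap, and Myc+/- was at 65.8% of wild type (-0.60 ± 0.09, limma adjusted p = 3.03e-05). Leaving out each array in turn gave -0.68 to -0.52, each with limma's adjusted p under 0.05. The call at 1.5-fold was lost without Myc+/- replicate 3 (-0.525) or wild type replicate 3 (-0.549). It was also lost with arrays centred on the median (-0.557). The direction follows the genotype labels. Where the probes lie relative to the deleted stretch is not known here.

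Pvt1, the long noncoding RNA gene next to Myc, read the other way. It was at 6.20, 6.89 and 6.62 in wild type and at 7.43, 7.16 and 7.18 in Myc+/- (0.69 ± 0.12, adjusted p = 0.000325 by limma). Its wild type arrays were spread more widely than those of most genes, and without wild type replicate 1 the difference was 0.50, under 1.5-fold. A second Pvt1 probe set was too dim to be tested and differed by 0.06. Pvt1 was also called higher in the adipose pool of the same mice.

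Of the 20 measured genes nearest to Myc, 10 on each side in RefSeq order, 11 were tested and Pvt1 was the 1 called by its brightest probe set. Over all genes 0.386% were called higher and 0.0923% lower. Washc5, a subunit of the WASH complex that acts on endosomes, passed array error at 0.18 ± 0.05 (adjusted p = 0.0164). Lratd2 was split between its probe sets: the brighter differed by 0.23 (adjusted p = 0.208) and the dimmer by 0.61 (adjusted p = 4.99e-05), or by 0.52 without wild type replicate 3. The other 8 tested neighbours differed by -0.18 to 0.16. Sqle, an enzyme of sterol synthesis in that interval, was at 0.16, and Trib1, a pseudokinase known for plasma lipid traits, at 0.06.

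**Figure D2:**
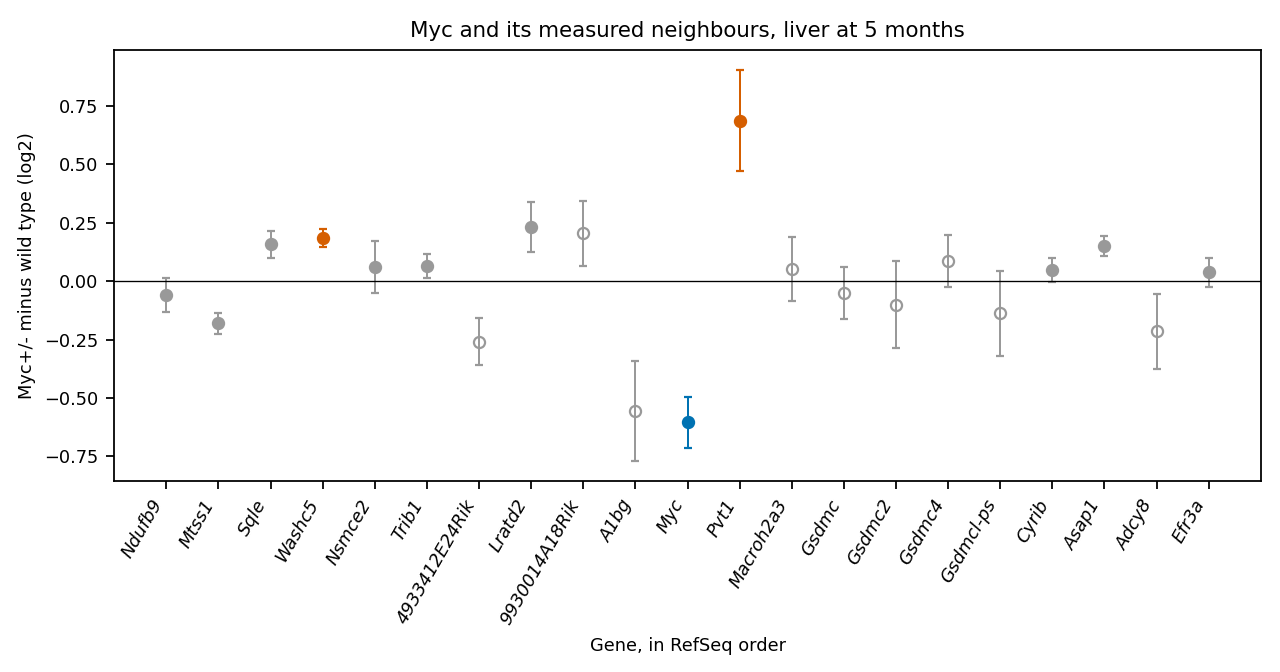
Difference between the Myc+/- and wild type pools (log2, vertical axis) for Myc and the 10 measured genes on each side of it in RefSeq order (horizontal axis), with error bars for the SE from the SDs of 3 and 3 arrays. Filled points were tested, orange and blue mark an adjusted p under 0.05, and Myc (-0.60) and its neighbour Pvt1 (0.69) lie on opposite sides of 0.

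The largest differences of the young liver were in acute phase genes. Of 33 tested genes of this list, 8 were called higher and 0 lower in the Myc+/- pool, against 0.386% and 0.0923% of all genes. They were the serum amyloid A genes Saa1, Saa2 and Saa3, which encode apolipoproteins that appear in plasma during inflammation, the orosomucoid genes Orm2 and Orm3, the iron-scavenger carrier Lcn2, and the metallothioneins Mt1 and Mt2, which bind zinc. This list, like the others below, was drawn up with earlier results of these data known. Its share of calls is a description and not independent support.

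Upstream of these 8 genes, the motif TTGCNNAA, of the kind bound by C/EBP factors, was searched on both strands in the RefSeq promoter windows (GRCm38.p6, 250 bases before to 50 after a start). It was found in 7 of 8 windows (87.5%), against 10.8% of all 32851 windows, 8.64% of the windows of tested genes, 11 of 44 windows of genes called higher and 0 of 11 of genes called lower. The 8 genes were picked by their calls in these data, so the contrast is a description only. Stretches around the match are shown because C/EBP factors are textbook regulators of this family; capitals mark the match and the strand is that of the gene.
Saa1 (chr7:46743129-46743188, minus strand): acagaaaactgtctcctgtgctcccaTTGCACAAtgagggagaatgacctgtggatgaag
Saa2 (chr7:46751624-46751683, plus strand): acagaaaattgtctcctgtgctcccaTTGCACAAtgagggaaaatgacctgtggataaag
Saa3 (chr7:46715742-46715801, minus strand): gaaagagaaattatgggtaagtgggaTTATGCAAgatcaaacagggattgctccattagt
Orm2 (chr4:63362303-63362362, plus strand): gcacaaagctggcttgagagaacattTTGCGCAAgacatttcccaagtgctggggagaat
Orm3 (chr4:63356011-63356070, plus strand): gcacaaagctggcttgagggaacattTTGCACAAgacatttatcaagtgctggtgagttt
Lcn2 (chr2:32387922-32387981, minus strand): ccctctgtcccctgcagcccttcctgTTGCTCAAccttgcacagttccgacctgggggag

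The match begins 182 bases before the start in Saa1, 183 in Saa2, 99 in Saa3, 120 in Orm2, 121 in Orm3 and 216 in Lcn2. Mt2 has one that begins 12 bases before its start, and the Mt1 window has none. A match is a run of letters and was not tested for binding. The 250 upstream bases of Saa1 and Saa2 align with 238 identical positions of 251 (94.8%), and those of Orm2 and Orm3 with 219 of 255 (85.9%), so neither pair is a pair of independent windows. Their transcripts were not compared here, and how far the probe sets of Saa1 and Saa2, or of Orm2 and Orm3, share signal was not tested. The motifs CACGTG (the E-box of Myc and Max), TTCNNNGAA (STAT), GGANTTNCC (kappaB), TTANGTAA (D-box) and TGACGTCA (CRE) were each in 0 of these 8 windows, and 7.15%, 8.3%, 3.95%, 2.32% and 1.79% of all windows held them. CACGTG was in 6.82% of the windows of genes called higher and in 2 of 11 windows (18.2%) of genes called lower, against 9.81% of the windows of tested genes. Those 11 windows belong to 8 genes, so they are not independent, and 2 windows are too few for a reading.

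Saa1 read 8.56, 8.66 and 8.83 on the wild type arrays and 11.95, 12.18 and 12.30 on the Myc+/- arrays. All Myc+/- arrays were above all wild type arrays, and the difference was 3.46 ± 0.15 (limma adjusted p = 9.93e-19). Saa2 read 10.44, 9.76 and 10.30 against 12.70, 13.34 and 13.23, which was 7.59-fold. Saa3, which is made by macrophages and fat as well as liver, read 8.49, 8.49 and 8.56 against 10.50, 10.87 and 10.78, or 4.61-fold. The 3 genes thus lay in separate ranges in the 2 pools, and each had its lowest Myc+/- value on replicate 1.

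Orm2 read 10.66, 10.47 and 10.68 in wild type and 12.88, 13.37 and 13.43 in Myc+/- (6.15-fold). Lcn2 read 9.87, 9.89 and 9.97 against 12.24, 12.58 and 12.58 (5.88-fold, adjusted p = 3.21e-26 by limma). Orm3 differed by 1.36 ± 0.12. The metallothioneins differed less: Mt1 read 11.24, 10.80 and 11.05 against 12.04, 12.29 and 12.32 (2.27-fold), and Mt2 12.80, 12.39 and 12.53 against 13.30, 13.97 and 13.90 (2.22-fold). None of the 8 calls was lost when any 1 of the 6 arrays was left out, and the smallest value was 1.03, for Mt2.

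The rest of the list did not show differences of this size. The median of the whole list, the 8 called genes included, was 0.066, with 20 of 33 members higher and 13 lower. Without Myc+/- replicate 1 it was 0.152, with 26 of 33 higher. The 8 called genes are among the higher members in both counts. Steap4, a metalloreductase named after its value was seen, differed by 0.44 ± 0.05 and Socs3, the feedback inhibitor of interleukin 6 signalling, by 0.41 ± 0.10, both past array error but under 1.5-fold; Socs3 lost its adjusted p without wild type replicate 2 (0.0584). Abundant acute phase genes, named here after their values were seen, were near 0 or below: Orm1 at 0.05, haptoglobin (Hp) at 0.15, hemopexin (Hpx) at -0.11 and the fibrinogen chains Fga, Fgb and Fgg at -0.17, -0.22 and -0.30. None of these 6 passed array error, and each had its lowest Myc+/- value on replicate 1.

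Cxcl1, a chemokine that attracts neutrophils, was the 1 called gene of 22 in inflammatory signalling, where 0.386% of all genes were called higher. It read 9.27, 9.12 and 9.42 in wild type and 9.90, 9.85 and 10.08 in Myc+/- (0.67 ± 0.11). Tlr2, a receptor of bacterial lipoproteins, differed by 0.43 and held an adjusted p under 0.05 without each array, while Icam1 (0.40) and Cd14 (0.32) lost it without 2 and 5 of the 6 arrays. Of 24 genes induced by interferons, 20 read higher (median 0.095). By limma 0 passed array error in either direction, where 2.81% of all genes were higher and 1.64% lower. In a list of this size 0 is near those shares. Complement and coagulation genes were lower for 23 of 26 (median -0.12), and without Myc+/- replicate 1 the median was -0.022 with 10 of 26 higher.

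Markers of blood and immune cells were read beside these genes. The 16 neutrophil and myeloid markers other than Lcn2 had a summed level of 10.33 to 10.36 on the wild type arrays and 10.47 to 10.55 on the Myc+/- arrays. S100a9 differed by 0.48 (adjusted p = 0.0121, lost without Myc+/- replicate 3 or wild type replicate 2), S100a8 by 0.32, Ngp by -0.15 and Mpo by -0.19, and Ly6g, Ltf, Camp and Mmp8 were too dim to be tested. Macrophage and Kupffer cell markers summed to 14.46 to 14.55 and 14.49 to 14.62. The part of these cells in the acute phase result was not tested. In adipose tissue of the same mice Saa1, Saa2, Saa3 and Orm2 were also called higher, by 0.69, 2.43, 1.24 and 0.65. Hepatocyte markers read higher in that Myc+/- adipose pool as well, for 12 of 13 (median 1.1). Saa1 was dim there, at 4.22 in wild type and 4.91 in Myc+/-. The part of liver transcripts in these adipose values was not tested. In muscle, where both were dim, Saa3 differed by 0.50 and Saa1 by 0.31, with no call. Hepatocyte markers read lower in the Myc+/- muscle pool for 13 of 13 (median -1.28).

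**Figure D3:**
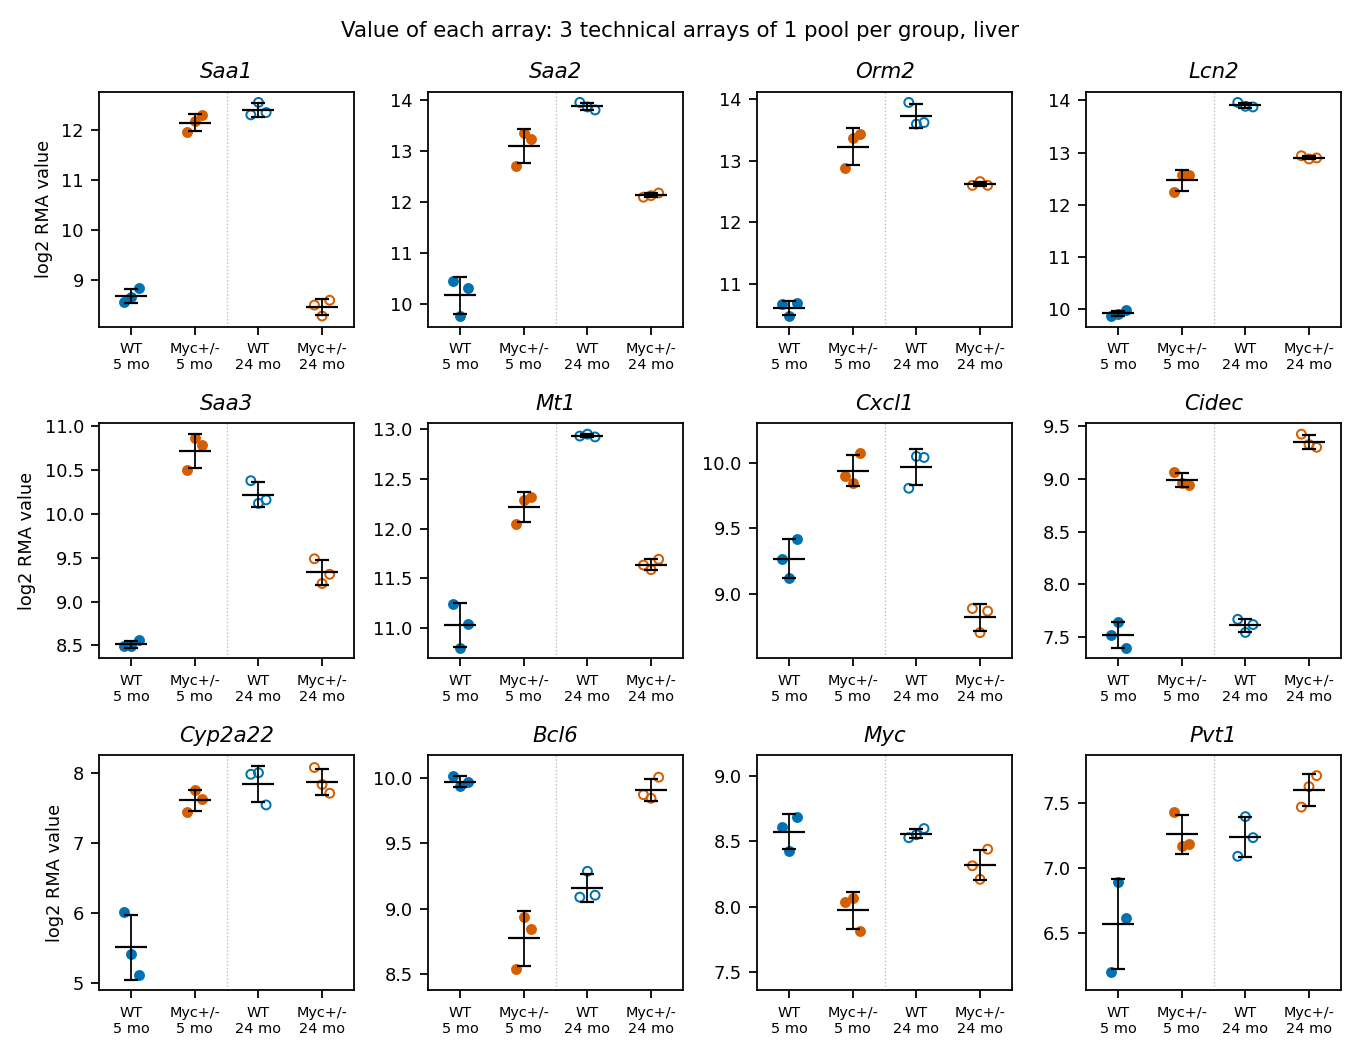
Value on each array (points, log2 RMA value) with mean and SD of 3 technical arrays, for 12 genes of the liver at 5 months (filled) and 24 months (open), wild type in blue and Myc+/- in orange. At 5 months Bcl6 and Myc are lower in Myc+/- and the other 10 genes are higher, while at 24 months Saa1, Saa2, Orm2, Lcn2, Saa3, Mt1, Cxcl1 and Bcl6 lie the other way round.

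Genes of fat handling formed another group. Cidec, a lipid droplet protein that lets small droplets merge into large ones, read 7.52, 7.64 and 7.39 in wild type and 9.07, 8.96 and 8.94 in Myc+/- (2.78-fold, limma adjusted p = 7.01e-17). It was the 1 called gene of 18 in the lipid droplet list, where 0.386% of all genes were called higher. Fitm1 (0.53), Lpin1 (0.47) and Plin4 (0.42), which act in droplet budding, diacylglycerol synthesis and droplet coating, differed beyond array error without each array in turn. The list had a median of 0.13 with 14 of 18 members higher, against 0.012 for all genes. Cidea, a relative of Cidec, lay under the signal filter. It read 6.02, 5.64 and 5.75 against 7.36, 7.27 and 7.48 and was called (1.56, adjusted p = 1.13e-11) when no filter was set, a gene singled out after its values were seen.

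Pparg, the nuclear receptor that drives fat storage and is counted here among the adipocyte markers, read 9.50, 9.46 and 9.52 in wild type and 9.94, 9.98 and 10.04 in Myc+/- (0.50 ± 0.06). The defining fat cell transcripts Adipoq and Lep were too dim to be tested and differed by -0.18 and -0.07, and Fabp4 by -0.01. The 13 adipocyte markers other than Cidec, Plin4 and Pparg had a summed level of 14.99 to 15.01 in wild type and 14.55 to 15.07 in Myc+/-, the low value being that of Myc+/- replicate 1.

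Genes of fatty acid and triglyceride synthesis were higher for 15 of 22 members (median 0.155, or 0.227 without Myc+/- replicate 1), with 9 past array error higher and 1 lower, where 2.81% and 1.64% of all genes were. Me1, the malic enzyme that makes NADPH for fat synthesis, was called on both of its probe sets (0.73 and 0.67). Elovl6 (0.55), which lengthens fatty acids, Thrsp (0.43) and Gpam (0.41), which starts triglyceride synthesis, were under 1.5-fold and held without each array. Mlxipl, the glucose-sensing transcription factor of this program and a member of the Myc network, differed by -0.19 and lost its adjusted p without 3 of the 6 arrays. Pgd, the pentose phosphate enzyme that also makes NADPH, differed by 0.42. Cholesterol synthesis genes had a median of 0.024, and Mvd (0.37) was the 1 of 20 past array error, where 2.81% of all genes were higher.

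Fatty acid oxidation genes and PPAR alpha targets were higher for 22 of 30 members (median 0.117), or 27 of 30 without Myc+/- replicate 1 (median 0.156). Among them 9 passed array error higher and 0 lower, against 2.81% and 1.64% of all genes. Called higher were 2, against 0.386% of all genes. Cd36, the fatty acid transporter of the cell surface, read 10.56, 10.33 and 10.44 in wild type and 11.09, 11.33 and 11.22 in Myc+/- (0.77 ± 0.06). Pdk4, which turns off pyruvate oxidation, differed by 0.61 and fell under 1.5-fold without Myc+/- replicate 2 (0.55) or wild type replicate 2 (0.51). Cyp4a14 (0.58) and Acot3 (0.53) passed array error but not without 4 and 3 of the arrays. Mfsd2a, a transporter of lysophosphatidylcholine, was called at 0.71 and Slc16a1, a lactate and ketone body carrier, differed by 0.31.

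Cytochrome P450 genes made up a further group. In xenobiotic metabolism, 6 of 44 tested genes were called higher and 0 lower, against 0.386% and 0.0923% of all genes. They were Cyp3a44 (0.84), Cyp2c38 (0.81), Cyp2c39 (0.74), Cyp2b10 (0.70), Cyp2b9 (0.68) and Cyp2c55 (0.65). Their probes can share signal with close relatives in these clusters. Cyp2c38 was the 1 of the 6 whose call held without each array. Cyp2b10, the standard target of the receptor CAR, read 10.28, 9.49 and 9.71 in wild type and 10.46, 10.52 and 10.60 in Myc+/-, and without wild type replicate 2 the difference was 0.53. Without the same array Cyp2b9 was at 0.47 and Cyp2c55 at 0.55. Without wild type replicate 1, Cyp2c39 was at 0.61. Cyp3a44 lost its call without wild type replicate 2 (0.76) or 3 (0.74) or Myc+/- replicate 2 (0.74) or 3 (0.65). The list as a whole had a median of 0.063 with 25 of 44 higher, or 0.156 with 37 of 44 without Myc+/- replicate 1.

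Outside that list, Cyp2a22 read 6.02, 5.41 and 5.11 against 7.45, 7.75 and 7.63, which was 4.28-fold. Its wild type arrays were dim and spread over almost 1 log2 unit. Glutathione and NRF2 target genes were higher for 19 of 25 members (median 0.185), with 8 past array error higher and 1 lower (2.81% and 1.64% over all genes) and 0 called. Gstm2 (0.49) and Gstt3 (0.49), which join glutathione to foreign compounds, held without each array, and Nqo1 (0.47) and Srxn1 (0.32) lost their adjusted p without wild type replicate 2 (0.0572 and 0.0591).

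Liver genes that differ between the sexes were compared because several of these P450 genes are female-biased and because their pattern depends on growth hormone. All mice here were males. Female-biased genes read higher in the Myc+/- pool for 10 of 11 tested members (median 0.326, or 0.258 with 9 of 11 without wild type replicate 2), with 2 called (0.386% over all genes), Cyp3a44 and Cyp2b9. Abcd2, a peroxisomal transporter, differed by 0.47. Of the 20 measured genes of the list 9 were too dim in these livers to be tested. Male-biased genes read lower for 19 of 24 (median -0.138), but without Myc+/- replicate 1 the median was -0.030 and 11 of 24 were higher. Selenbp2 (-0.36) held without each array. Moxd1, a monooxygenase-like gene on the male list, went the other way: it read 9.80, 9.98 and 9.85 in wild type and 10.52, 10.78 and 10.72 in Myc+/- (1.74-fold, called).

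Bcl6, a transcriptional repressor that growth hormone lowers and that is higher in male than in female liver, was among the genes with the largest reduction. It read 10.01, 9.94 and 9.97 in wild type and 8.54, 8.94 and 8.85 in Myc+/-, so that Myc+/- was at 43.5% of wild type (-1.20 ± 0.08, limma adjusted p = 3.32e-14). Igfbp2, a binding protein of IGF1, read 11.52, 11.52 and 11.50 against 10.93, 10.84 and 10.95 (-0.61) and fell under 1.5-fold without Myc+/- replicate 2 (-0.57). Socs2, a feedback inhibitor that growth hormone induces, differed by -0.50 ± 0.07 on its brighter probe set and by -0.28 (adjusted p = 0.142) on the dimmer. Igf1, the growth hormone receptor gene Ghr and Stat5b, named after their values were seen, were at -0.17, -0.10 and -0.01, with no call. Of 19 tested genes of the growth hormone axis 2 were called lower and 0 higher, against 0.0923% and 0.386% of all genes.

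Members of the circadian clock list passed array error in both directions. Of 22 tested, 6 did so lower and 3 higher, against 1.64% and 2.81% of all genes, with 0 called. Dbp, an output factor of the clock, read 10.73, 10.92 and 10.87 in wild type and 10.48, 10.38 and 10.49 in Myc+/- (-0.39). Per3 was at -0.39 and lost its adjusted p without wild type replicate 3 (0.0581). The higher members named here were Lpin1 (0.47), which is also on the lipid droplet list above, and Tsc22d3 (0.33). The hour of tissue collection is not known here. Glucocorticoid targets had 7 of 16 members past array error higher and 0 lower (2.81% and 1.64% over all genes), with Lcn2, Mt1, Mt2 and Pdk4 called, all of which sit on other lists as well.

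The genes best known as Myc targets differed little. Ribosome biogenesis and nucleolar genes were higher for 24 of 38 members (median 0.046), and the largest was Noc3l at 0.20. By limma 0 passed array error in either direction, where 2.81% of all genes were higher and 1.64% lower. In a list of this size 0 is near those shares. Nucleotide and polyamine genes had a median of -0.009, whose sign turned when arrays were scaled otherwise, with Mthfd2 (0.32) and Tfrc (0.35) higher and Ndrg1 (-0.32), a gene that Myc represses, lower past array error; Mthfd2 and Tfrc lost it without 4 of the 6 arrays. Proliferation genes had a median of 0.052, and of 22 tested genes 1 passed array error, on the lower side, where 1.64% of all genes did. In the Myc, Max and Mlx network Pvt1 (higher) and Myc (lower) were the 2 called of 24, against 0.386% and 0.0923% of all genes.

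Cytosolic ribosomal protein genes read lower for 37 of 40 tested members (median -0.155), with 8 past array error lower and 0 higher, where 1.64% and 2.81% of all genes were. Rps18 (-0.24) and Rplp0 (-0.24) held without each array, although a dimmer Rplp0 probe set was at -0.18 (adjusted p = 0.186), and Rpsa (-0.27) lost its adjusted p without Myc+/- replicate 1 (0.0584). Without that array the median was -0.098 and 10 of 40 were higher. No member reached 1.5-fold. Oxidative phosphorylation genes had a median of -0.042 with 11 of 44 higher, and 0.021 with 31 of 44 higher without Myc+/- replicate 1, and it was 0.006 with arrays centred on their medians, so their direction was not settled.

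**Figure D4:**
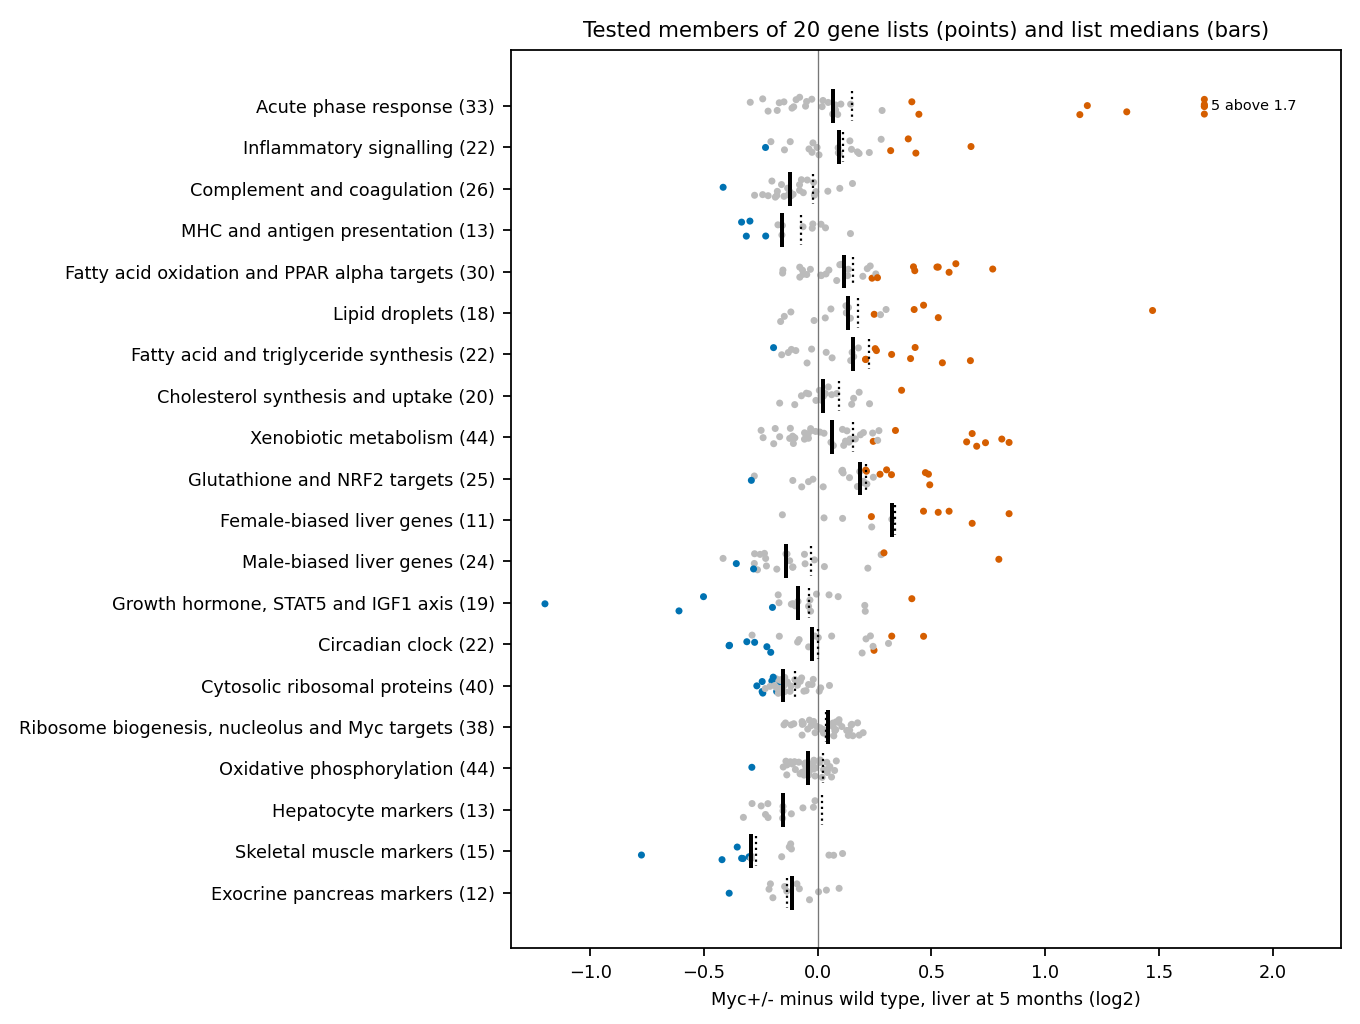
Difference between the pools (log2, horizontal axis) for the tested members of 20 gene lists, number of tested members in brackets, with an adjusted p under 0.05 in orange (higher) and blue (lower), other members grey and 5 acute phase genes above 1.7 drawn at 1.7. Solid bars are list medians with all arrays and dotted bars those without Myc+/- replicate 1, which moved the medians of hepatocyte markers (-0.15 to 0.018), oxidative phosphorylation and male-biased genes to near or across 0.

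Other genes called lower were few. Scarna13, a small Cajal body RNA that guides chemical changes of spliceosomal RNA, read 10.94, 10.92 and 11.06 in wild type and 9.82, 9.64 and 9.49 in Myc+/- (2.50-fold, the largest reduction). Adgrf1, an adhesion receptor, was at -1.08 ± 0.19, Clec2h, a C-type lectin, at -0.78 and Sncg, gamma-synuclein, at -0.71. Tff3, a secreted epithelial peptide counted among the bile duct markers, read 9.32, 9.19 and 9.36 against 8.48, 8.56 and 8.45, while the other 8 tested bile duct markers differed by -0.17 to 0.30. Hsd17b6, a steroid dehydrogenase, was at -0.69 and Nipal1 at -0.61, and both lost the call without Myc+/- replicate 1 (-0.59 and -0.56) or wild type replicate 1 (-0.64 and -0.57). Nipal1 also lost it without wild type replicate 3 (-0.50).

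Antigen presentation genes of class II were lower by small amounts. H2-Eb1 was at -0.34, H2-Ab1 at -0.31, H2-DMa at -0.30 and Cd74, the invariant chain, at -0.23, and these were the 4 of 13 genes in the list past array error, where 1.64% of all genes were lower. Cd74 read 10.80, 10.81 and 10.82 in wild type and 10.57, 10.60 and 10.57 in Myc+/-. H2-Eb1 and Cd74 held without each array, H2-DMa did not without 3 of them, and H2-Ab1 not without Myc+/- replicate 1 (0.05). B and plasma cell markers summed to 10.44 to 10.52 in wild type and 10.40 to 10.45 in Myc+/-.

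Skeletal muscle markers read lower in the Myc+/- pool. Myl1, the light chain of fast muscle myosin, read 7.55, 8.21 and 7.98 against 7.22, 6.73 and 7.46 (-0.78), and without Myc+/- replicate 2 it was at -0.57. Actn3 (-0.42) and Tnnt3 (-0.35) held without each array. Over the list, 12 of 15 tested genes were lower (median -0.29, or -0.162 without wild type replicate 2), and the 24 measured genes summed to 12.12 to 12.33 in wild type and 11.94 to 12.05 in Myc+/-. The fast myosin genes Myh1, Myh2 and Myh4 were too dim to be tested. Exocrine pancreas markers summed to 10.89 to 11.02 and 10.86 to 10.88. The part of tissue around the liver in other results was not tested.

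Further genes called higher lay outside the lists. Slc16a5, a transporter of the monocarboxylate family, read 7.23, 7.27 and 7.23 against 8.45, 8.31 and 8.43 (2.22-fold). Themis, a signalling protein of developing T cells, was at 1.11 ± 0.13. The T and NK cell markers had a median of -0.077 and summed to at least 11.08 in wild type and at most 11.06 in Myc+/-. Trat1, a T cell receptor adaptor under the signal filter and named after its values were seen, read 3.97, 3.73 and 3.79 against 4.46, 4.72 and 4.76 and was called with no filter (0.82, adjusted p = 4.46e-05). The part of T cells in the Themis difference was not tested. The transcript 9030619P08Rik was at 0.97, Slc8a1, a sodium and calcium exchanger, at 0.96, Lrtm1 at 0.95, Nat8f5 at 0.93, Tcim at 0.92, Raet1d, a ligand of the NK cell receptor NKG2D, at 0.90 and Gpx6 at 0.88. Bhmt, which remethylates homocysteine, was called on its dimmest probe set only (0.90), and its bright probe sets differed by -0.08 and 0.18 with no call, so its probes disagree.

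The genotype difference of the young liver was then set against that at 24 months, where other mice were pooled. At 24 months 139 genes (1.17%) were called higher and 89 (0.746%) lower in Myc+/-. Exocrine pancreas markers read higher in that Myc+/- pool for 12 of 12 (median 1.99). Skeletal muscle markers read lower there for 15 of 15 (median -0.56). The part of tissue around the liver in the 24-month values, and in the comparison of ages, was not tested. Of the 49 probe sets called higher at 5 months, 6 were called higher at 24 months as well (12.2% of the 49 and 4.26% of the 141 at 24 months) and 11 were called lower. Of the 11 called lower, 3 were called lower and 1, Bcl6, was called higher. The 2 differences were themselves apart by limma's test, at 1.5-fold, for 318 probe sets (2.43% of those tested), and 33 of the 60 called at 5 months were among these.

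The 11 called in opposite directions were Saa1, Saa2, Saa3, Orm2, Orm3, Lcn2, Mt1, Mt2, Cxcl1, Cyp2b9 and Mmd2. The old pools of Saa1 read 12.40 (wild type) and 8.45 (Myc+/-), so that its difference was 3.46 at 5 months and -3.94 at 24 months. In the same old pools Lcn2 read 13.91 and 12.90, and Orm2 read 13.72 and 12.62. Both 24-month pools of Lcn2 lay above both 5-month pools, and for Saa1 the older Myc+/- pool (8.45) lay beside the younger wild type pool (8.68). Over the acute phase list, 20 of 33 members were higher at 5 months and 2 of 33 at 24 months, with medians of 0.07 and -0.48. Bcl6 was at 9.16 and 9.91 at 24 months, against 9.97 and 8.77 at 5 months.

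Of the 59 called symbols, 34 had a difference of the same sign at 24 months. The share of all tested genes with the same sign was not computed, so this count is no measure of agreement between ages. In the same direction at both ages, 9 probe sets were called. Cidec differed by 1.47 and 1.75, Nat8f5 by 0.93 at 5 months and more at 24 months, Cyp2c55 by 0.65 and 1.16, Mfsd2a by 0.71 and 0.62, Slc17a8, a vesicular glutamate transporter, by 0.86 and 0.59 and 9130409I23Rik by 0.82 and 0.82. Me1, Pdk4 and Cd36 passed array error higher at 24 months too, under 1.5-fold (0.54, 0.54 and 0.26). On the lower side Tff3 differed by -0.79 and -0.74, Nipal1 by -0.61 and -0.88 and the skeletal muscle marker Myl1 by -0.78 and -1.60. The skeletal muscle markers were lower for 12 of 15 at 5 months and 15 of 15 at 24 months. Female-biased genes were higher for 10 of 11 at 5 months and for 2 of 11 at 24 months (medians 0.33 and -0.26). PPAR alpha targets were higher for 22 of 30 and 30 of 30 (0.12 and 0.28). Myc itself differed by -0.60 and -0.24, and that pair was not called apart. The 24-month difference of Myc did not pass array error (limma adjusted p = 0.078).

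**Figure D5:**
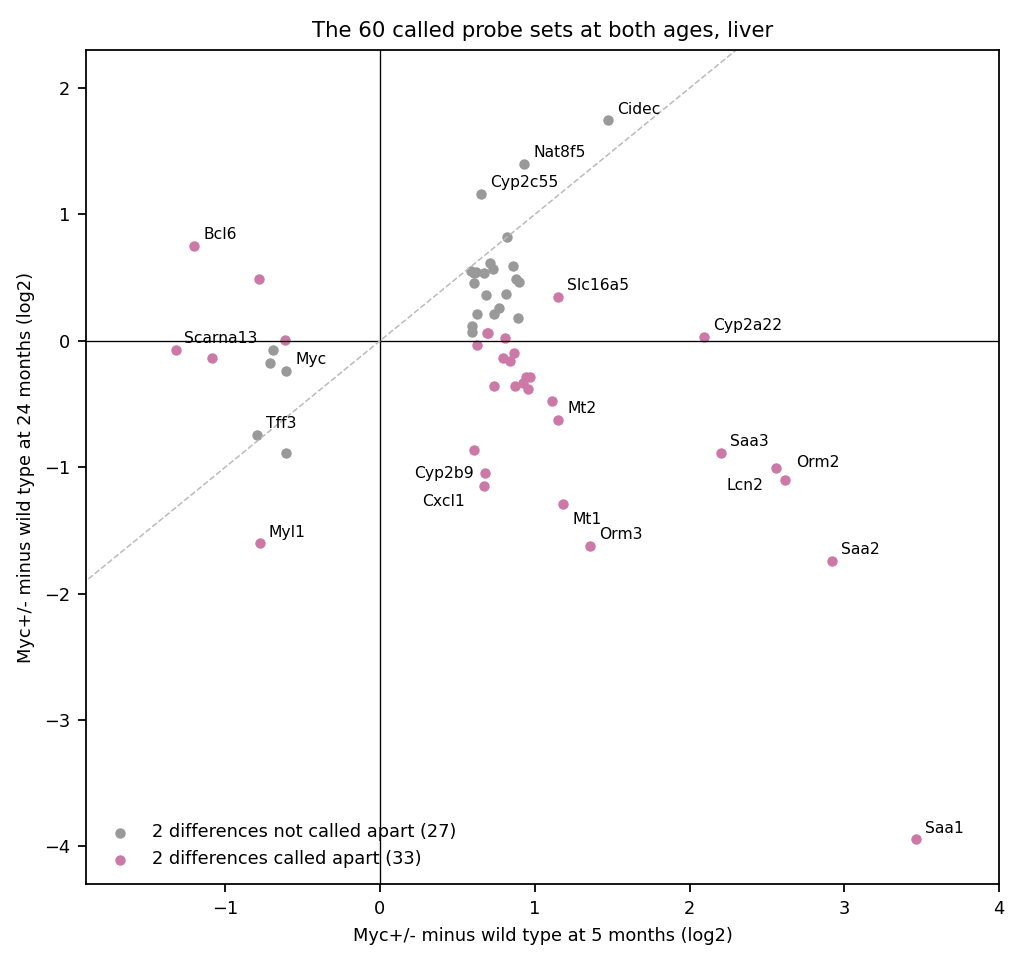
Myc+/- minus wild type at 24 months (log2, vertical axis) against the same difference at 5 months (horizontal axis) for the 60 probe sets called at 5 months, with the 33 whose differences were called apart in pink, the other 27 in grey and the dashed line at equal differences. Saa1 lies lowest at right (3.46 and -3.94), and Cidec and Nat8f5 lie highest, just above the line.

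Between tissues of the same 5-month mice, the genotype difference in liver was called apart from that in muscle for 128 probe sets (0.979%) and from that in adipose for 275 (2.1%). None of the 60 liver calls was called in muscle in either direction, where 3 of the 13073 tested probe sets were called higher and 77 lower. With so few muscle calls, 0 shared calls is near what their share of all probe sets gives. It is no result about the liver genes. The signal filter used liver arrays only. Some called genes, such as Saa1, Cyp2a22 and Cyp2c38, were dim in muscle and adipose, while others, such as Cd36 and Pdk4, were bright in both. For the dim genes a missing call does not show that the difference was confined to liver. The counts of 128 and 275 carry the same limit. In adipose 154 of the 13073 tested probe sets were called higher. Of these, 7 were also higher in liver (14.3% of the 49 and 4.55% of the 154): Saa1, Saa2, Saa3, Orm2, Pvt1, Bhmt and Cxcl13, a chemokine for B cells. In that adipose contrast 12 of 13 hepatocyte markers read higher too (median 1.1). In the muscle contrast 13 of 13 read lower (median -1.28). The part of liver transcripts in the muscle and adipose counts was not tested. Rdh16, a retinol dehydrogenase, was higher in liver (0.60) and lower in adipose (-0.77), and in liver its call was lost without 4 of the 6 arrays (0.57 to 0.58). Bcl6 and Scarna13 differed by 0.26 and -0.19 in adipose and by -0.13 and 0.06 in muscle, with no call.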

How the data were processed

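Log2 expression values per probe set were used as deposited by the authors. Per the submitters' processing notes, Expression Console and RMA made them; settings are not given in the sources used here. The labels name 2 ways of homogenizing tissue and 2 labelling kits without tying them to samples.

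Of 35556 probe sets, 23410 were in the platform's gene annotation and 21789 had 1 symbol, of which 21698 were found in RefSeq. Limma 3.58.1 (R 4.3.3) was fitted to all 36 arrays with 12 pool means (24 residual degrees of freedom, intensity trend, Benjamini-Hochberg adjustment). Only probe sets above the 40th percentile of the mean over liver arrays were tested. A gene was represented by its brightest probe set. P-values measure array-to-array spread only, and 3 arrays limit precision. The fit was tested on simulated data. A set of 47 gene lists matched 1087 of 1217 entries. Members and lists were chosen with earlier results of these data known.

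Named genes were the 20 largest called differences per direction, Myc, Pvt1 and the 10 measured genes on each side of Myc, called and up to 4 largest members per list, and up to 5 per direction shared with another age or tissue. Any other gene named was chosen after its values were seen. Promoter windows and neighbour order came from RefSeq (GRCm38.p6), which held a window for 47 of 59 called symbols. Alternatives were other filters, fewer arrays, renormalization, other folds and leaving out each array.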

Additional observations from a re-analysis of the deposited data

Results flagged for a closer look

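The genotype difference in liver at 5 months minus that at 24 months passed limma's test (adjusted p under 0.05, at least 1.5-fold) for the genes below, each with 1 pool a genotype and age. Values are on the log2 scale. Among genes called at 5 months it was positive for Saa1 (7.40), Saa2 (4.67), Orm2 (3.72), Lcn2 (3.56), Saa3 (3.09), Orm3 (2.98), Mt1 (2.48) and Mt2 (1.78), all acute phase genes. It was also positive for Cyp2a22 (2.06), Cxcl1 (1.82), Cyp2b9 (1.73), Themis (1.58), Mmd2 (1.47), Slc8a1 (1.34), 9030619P08Rik (1.26), Tcim (1.26), Lrtm1 (1.23), Tceal8 (1.22), Cyp2c39 (1.09) and Cyp3a44 (1.00). Smaller values were found for Tubb2a (0.96), Moxd1 (0.94), Slc16a5 (0.80), Cyp2c38 (0.79), Slc22a7 (0.66), Cyp2b10 (0.64) and Robo1 (0.63).

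Among genes called lower at 5 months, Bcl6 (-1.95), Clec2h (-1.27), Scarna13 (-1.25), Adgrf1 (-0.95) and Igfbp2 (-0.62) had a more negative difference at 5 months, and Myl1 (0.83) a less negative one. Members of the gene lists that were under 1.5-fold at 5 months met the same test. The pancreatic ribonuclease Rnase1 was at -2.34, where exocrine pancreas markers were higher in the 24-month Myc+/- pool for 12 of 12 (median 1.99). The lymphatic and sinusoidal endothelial receptor Lyve1 was at -1.36. The class II genes Cd74 (-1.04), H2-DMa (-0.95), H2-Eb1 (-0.89) and H2-Ab1 (-0.83), the clock output gene Dbp (-1.17), the platelet chemokine Ppbp (-0.94), Selenbp2 (-0.96) and Cyp8b1 (-0.81), which makes cholic acid, were also negative. The neutrophil granule gene Ngp was at -0.73. Positive values were those of Steap4 (1.61), Sqle (0.86), Abcd2 (0.67), Hp (0.64), Cd14 (1.34), Scara5 (1.13), Lpin1 (1.03), Socs3 (0.98), Mvd (0.88), Elovl6 (0.83), Nqo1 (0.77), Atp2a1 (0.75), Tfrc (0.73), Tnnt3 (0.65) and Icam1 (0.63).

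Probe sets outside the comparison also differed. Of those not listed in the annotation, 14 were called higher and 6 lower in Myc+/- liver at 5 months, and of those with several symbols 2 were called higher. They are unnamed here.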

How the results depend on the processing

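Counts in this paragraph are of probe sets, 49 higher and 11 lower in the main run. A minimum of 2-fold left 12 higher and 3 lower, and 1.2-fold gave 253 and 138. Over the same 2 limits the probe sets whose differences were apart numbered 80 and 1167 for 24-month liver, 42 and 313 for muscle and 63 and 926 for adipose. With no filter the lower count was 19 and the adipose count 433, and at the 60th percentile the 24-month count was 188. Centring arrays on the median gave 59 higher and 8 lower. Leaving out each array gave 41 to 56 higher and 9 to 12 lower. Of 59 called probe sets other than Myc, 41 were called under all alternatives that tested them other than the 2 fold limits, and no sign turned. Most losses (10) came without wild type replicate 2. Centring moved 21 of 47 list medians beyond their spread, leaving out Myc+/- replicate 1 moved 12, and a new quantile normalization or leaving out wild type replicate 2 moved 8 each. With the replicate block the counts were 49 and 11 and Myc had adjusted p = 5.18e-05; equal numbers did not pair arrays (correlations of deviations -0.149, -0.194 and -0.119). Rescaling the arrays (median centring or a new quantile normalization) turned the sign of 14 list medians, which lay between -0.06 and 0.061 under these settings. The cause of these changes was not tested. Dim probe sets limit what can be seen: 14 more were called higher and 8 lower when no filter was set.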
